A study of Strongylocentrotus purpuratus with 2 samples.

Results

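Dense clusters of open chromatin were examined in whole wild-type embryos of Strongylocentrotus purpuratus, the purple sea urchin, that had developed for 48 hours after fertilization at 15 °C. Open chromatin was measured by ATAC-seq, in which the Tn5 transposase inserts sequencing adapters where DNA is not covered by nucleosomes or other proteins. There were 2 samples of 1 group, named replicate 1 and replicate 2, and all embryos were wild type with no treatment named, so no conditions could be compared. The labels do not say whether the replicates came from separate cultures.

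A dense cluster was defined from the peak positions alone. Overlapping peaks of both replicates were merged, and the 18746 merged regions that held a peak of each replicate were kept as reproducible regions, out of 40611 merged regions. Reproducible regions on the same sequence were then chained where the gap from edge to edge was at most 5000 bp. The members are the 1001 reproducible regions in chains of 4 or more, which formed 222 chains. They were 5.34% of all reproducible regions (95% Wilson interval 5.03 to 5.67%, which covers counting error only). Members come in groups of 4 or more, so this interval is too narrow. Of the other reproducible regions, 6956 lay in chains of 2 or 3 and 10789 were single, with no reproducible neighbour within reach.

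In animal genomes, transcription is controlled by promoters at gene starts and by cis-regulatory modules, short stretches that bind transcription factors and may lie near or far from the gene they control. Genes that act in development often have several such modules, and sea urchin embryos have been a main system for dissecting them. At gastrula stages the gut has formed by invagination, skeletogenic cells lay down the larval skeleton, and ectodermal territories are being set apart. A whole-embryo sample mixes all these cell types, so the regions of a chain need not be open in the same cells. Gene annotation was not used here, so the chains are named by position. Coordinates are 1-based on the RefSeq sequences that the lists name.

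The data were the authors' 2 peak lists, with 29456 peaks in replicate 1 and 32554 in replicate 2. Read totals are not in the lists, so depth was read from 2 quantities solved from each peak's deposited values. The summit pileup is the number of extended reads over the summit, and the local background is the number the caller took as usual for that place. Over each whole library that number was 0.671 reads in replicate 1 and 0.813 in replicate 2, and levels were compared within a replicate. The mitochondrial sequence was left out.

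The chain with the most regions lay on NW_022145611.1 from 20242585 to 20275816. It held 13 reproducible regions over 33232 bp, which was also the widest span of any chain. The regions were 166 to 601 bp wide and covered 14.2% of the span. Gaps between neighbours ran from 84 to 4642 bp, with a median of 2625 bp. The nearest reproducible regions outside lay 17557 bp to the left and 8144 bp to the right.

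All 13 regions hold a called peak of each replicate, so by the rule they stand above their local background in both. The ninth region, at 20260984 to 20261372, was the highest, with a summit pileup of 71 reads in replicate 1 and 69 in replicate 2. Its summits lay 13 bp apart, and its fold over background, the authors' value for a peak, was 9.59 in replicate 1 and 7.84 in replicate 2. The last region, at 20275396 to 20275816, had a lower pileup, of 42 reads in replicate 1 and 48 in replicate 2. Its local background of 3.96 and 4.49 extended reads per base was also lower, and its fold was 8.67 in replicate 1 and 8.93 in replicate 2. Fold and pileup therefore named different leading regions in replicate 2. The lowest pileup in both replicates was shared or held by the fifth and eleventh regions. The fifth, at 20249896 to 20250061, had 20 reads in replicate 1 and 24 in replicate 2. The eleventh, at 20266795 to 20267055, had 20 reads in replicate 1 and 23 in replicate 2. In the other 10 regions the pileup ran from 22 to 43 reads in replicate 1 and from 26 to 49 reads in replicate 2. The high and low regions were thus largely the same in both replicates. The span also held 1 region found only in replicate 1 and 3 found only in replicate 2, the most of any chain.

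**Figure D1:**
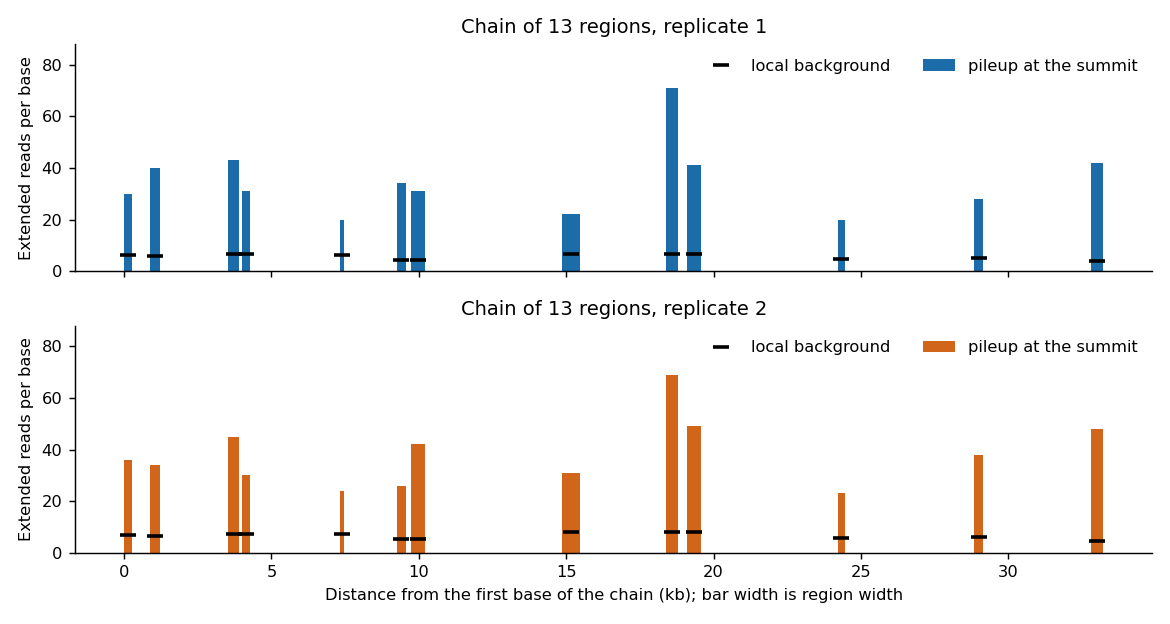
Summit pileup (bars, as wide as the region) and local background (black ticks), both in extended reads per base, along the chain of 13 regions in each replicate, against the distance from its first base in kb. The ninth region is the highest in both replicates, at 71 and 69 reads, and the background stays between 3.96 and 8.23.

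The second chain by size lay on the same sequence, NW_022145611.1, from 31455397 to 31473388, with 8 regions over 17992 bp. The region at 31464272 to 31464730 was the highest, with 40 reads in replicate 1 and 39 in replicate 2. The other 7 regions had 17 to 25 reads in replicate 1 and 15 to 26 reads in replicate 2. Its narrowest neighbours, at 31459038 to 31459168 and 31459174 to 31459291, were only 131 and 118 bp wide and lay 5 bp apart, so they may be counted as 1 region under another rule. The largest gap of the chain, 4980 bp, was just within the limit.

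Chains of 7 regions were found 3 times, on 3 sequences. The chain on NW_022145601.1 from 7559184 to 7576727 was uneven. A pair of neighbours, at 7567948 to 7568416 and 7571311 to 7571834, had 89 and 87 reads in replicate 1 and 95 and 103 in replicate 2. The other 5 regions had 22 to 32 reads in replicate 1 and 20 to 41 in replicate 2. The pileup of 103 reads was the highest of any member in replicate 2.

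The chain on NW_022145600.1, from 15740785 to 15758072, had its highest regions at its left end. Its first region, at 15740785 to 15741284, had 55 reads in replicate 1 and 68 in replicate 2. The second, at 15745445 to 15745783, had 54 reads in replicate 1 and 64 in replicate 2. Of the remaining 5, the highest had 30 reads in both replicates. The third chain of this size lay on NW_022145612.1, from 47729760 to 47746809. There the replicates differed more. The region at 47735682 to 47735994 had 21 reads in replicate 1 and 45 in replicate 2, while the next, at 47739727 to 47740097, had 41 and 49.

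Of the 24 chains of 6 regions, the 5 with the shortest spans complete the 10 largest. The most compact, on NW_022145612.1 from 26945088 to 26952519, held its 6 regions within 7432 bp, with pileups of 35 to 40 reads in replicate 1 and 31 to 52 in replicate 2. Another, on NW_022145612.1 from 4454277 to 4463301, had the smallest median gap of all chains of 6 or more, at 438 bp. Its regions were close in width, at 241 to 281 bp, and had pileups of 17 to 24 reads in replicate 1 and 14 to 26 in replicate 2. The other chains of this group lay on NW_022145609.1 from 19825431 to 19834530, on NW_022145612.1 from 5318327 to 5327576 and on NW_022145610.1 from 7564922 to 7574627. Across these 3 chains the pileup ran from 17 to 35 reads in replicate 1 and from 16 to 57 reads in replicate 2. With ties settled by the shorter span, NW_022145612.1 held 4 of the 10 largest chains, and NW_022145611.1 held 2. Of all 222 chains, NW_022145612.1 held 34 and NW_022145611.1 held 21.

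**Figure D2:**
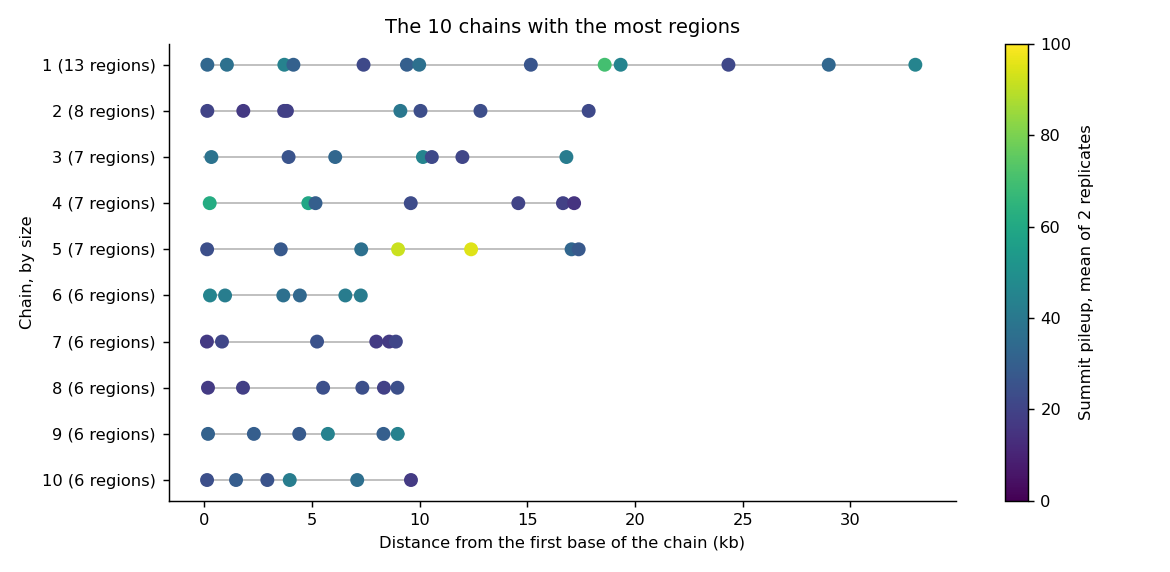
Map to scale of the 10 chains with the most regions, from the largest at the top; each point is the middle of a reproducible region, placed by its distance in kb from the first base of its chain, and its colour is the summit pileup averaged over the 2 replicates. The largest chain reaches 33.0 kb, and the brightest points are 2 neighbouring regions of the fifth chain.

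Most chains were short. Exactly 4 regions made up 150 of the 222 chains (67.6%), 43 had 5 regions and 29 had 6 or more. The median span was 8318 bp, the middle 50% of chains spanned 6064 to 10612 bp, and the extremes were 1025 and 33232 bp. Spans over 10 kb were seen in 70 chains and spans under 5 kb in 37. Together the chains spanned 1934 kb, or 0.215% of the 901.0 Mb that peaks spanned on 111 sequences. The members covered 332 kb, which was 17.1% of the chain spans. The median chain held 1 region per 1933 bp of span.

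Gaps within chains spread over the whole allowed range. Their median was 1852 bp over 779 gaps, with an interquartile range of 650 to 3324 bp. Gaps under 100 bp made up 9.63%, gaps of 1000 to 2000 bp made up 18.5% and gaps of 4000 to 5000 bp made up 15.7%. In chains of 2 or 3, where the same limit applied, the median was 1273 bp over 3774 gaps and 18.9% were under 100 bp. The gaps were wider in longer chains, with a median of 1471 bp in chains of 3, 1699.5 bp in chains of 4, 2042 bp in chains of 5 and 2208 bp in chains of 6 or more. The limit of 5000 bp sets the upper end of all these values, so they are a description of the chosen chains.

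**Figure D3:**
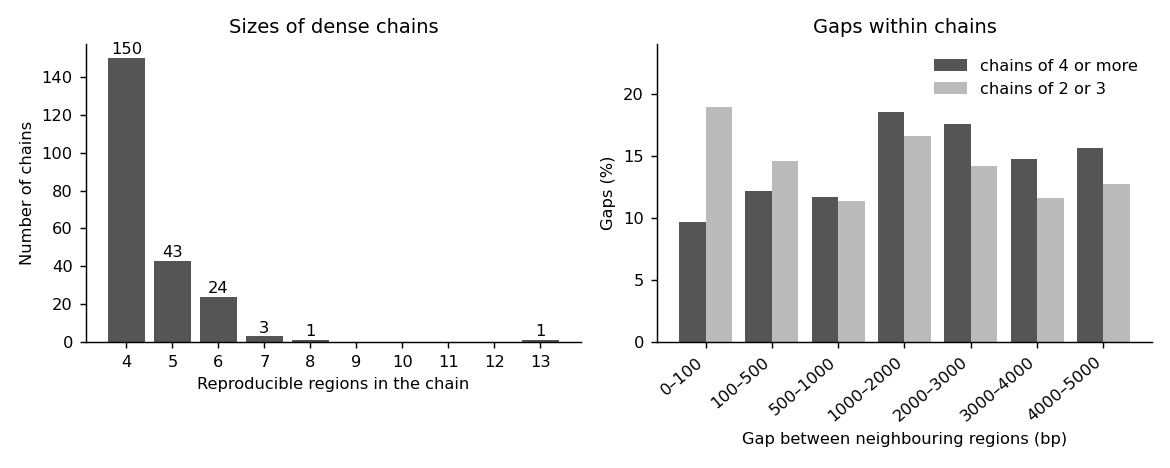
Left, the number of chains by the number of reproducible regions they hold, from 150 chains of 4 to a single chain of 13. Right, the share of gaps in each class of gap length in bp, for chains of 4 or more (dark) and chains of 2 or 3 (light); gaps under 100 bp make up 9.63% in the dense chains and 18.9% in the short ones.

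Some chains were nearly continuous. A gap under 100 bp occurred in 61 chains (27.5%), and 7 chains had more than 50% of their span covered by regions. The most covered chain, on NW_022145613.1 from 20093373 to 20094992, had 4 regions in 1620 bp, gaps of 17 to 95 bp and 87.7% of its span covered. Its pileups were 18 to 52 reads in replicate 1 and 18 to 60 in replicate 2. A second such chain, on NW_022145613.1 from 12264926 to 12266804, was 82.7% covered and had pileups of 30 to 94 reads in replicate 1 and 44 to 88 in replicate 2. Its 94 reads were the highest pileup of any member in replicate 1, a value also reached in a chain on NW_022145599.1 from 9116902 to 9127907. The narrowest chain of all lay on NW_022145610.1 from 14802453 to 14803477, with 4 regions in 1025 bp. At the other extreme, 51 chains had every gap at 1000 bp or more. When regions up to 100 bp apart were first merged, 180 chains of 4 or more were left.

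The limits of the rule divided the regions without a break. Chains of 3, just outside, numbered 592 and had a median span of 4800 bp, and chains of 4, just inside, had a median span of 7283 bp. In chains of 3 the median pileup was 20 reads in replicate 1 and 24 in replicate 2, close to the 21 and 26 reads in chains of 4. Of the 779 gaps within dense chains, 62 were 4500 to 5000 bp long. Of the 440 chain ends with a further reproducible region on the sequence, 35 had it within 6000 bp, the nearest at 5009 bp.

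Members were then set beside the 10789 single regions. They had more reads at the summit but a lower fold. The fold divides the pileup by the local background, which was higher in the chains. The median local background was 3.56 extended reads per base at members and 1.32 at single regions in replicate 1, and 4.51 at members and 1.57 at single regions in replicate 2. The ratio was 2.78 ± 0.124 (SD, n = 2). The median summit pileup was 22 reads at members and 16 at single regions in replicate 1, and 27 at members and 18 at single regions in replicate 2. That ratio was 1.44 ± 0.0884 (SD, n = 2). The median fold was 5.21 at members and 7.21 at single regions in replicate 1, and 5.20 at members and 7.25 at single regions in replicate 2, a ratio of 0.720 ± 0.00357 (SD, n = 2). Fold and pileup thus ranked the classes in opposite order in both replicates. No test was made, since the peak calls chose the members and regions of 1 library share their source.

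The comparison of pileup also turned round at like background. Where the local background was 3 to 4 extended reads per base, the median pileup in replicate 1 was 22 reads at 290 members and 45 reads at 351 single regions. In replicate 2 it was 24 reads at 229 members and 38 reads at 764 single regions. At a background of 1 to 2, the medians were 14 reads at members and 16 at single regions in replicate 1, and 15 and 16 in replicate 2. Within all 4 background classes, members thus had a lower median pileup than single regions in both replicates. The classes are ranges, not equal background. The upper quartile of background at all 10789 single regions was 1.84 in replicate 1 and 2.23 in replicate 2. Single regions at a background of 3 to 4 were thus among those with the highest background, while members there were not. The part that a region's own reads and those of its neighbours take in the local background was not tested.

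Background and pileup went up with the length of the chain. By the rule, regions of longer chains have more neighbours in their chain. The part that the reads of neighbours take in the background was not tested. In replicate 1 the median background was 1.32 at single regions, 2.00 in chains of 2, 2.76 in chains of 3, 3.38 in chains of 4, 3.50 in chains of 5 and 4.62 in chains of 6 or more. In replicate 2 it was 1.57 at single regions, 2.42, 3.41, 4.34 and 4.33 in chains of 2 to 5, and 5.69 in chains of 6 or more. The median pileup at single regions was 16 reads in replicate 1 and 18 in replicate 2, and in chains of 6 or more it was 25 and 31. The median fold went down to chains of 4 and was level beyond them, at 5.21, 5.27 and 5.12 in chains of 4, 5 and 6 or more in replicate 1.

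**Figure D4:**
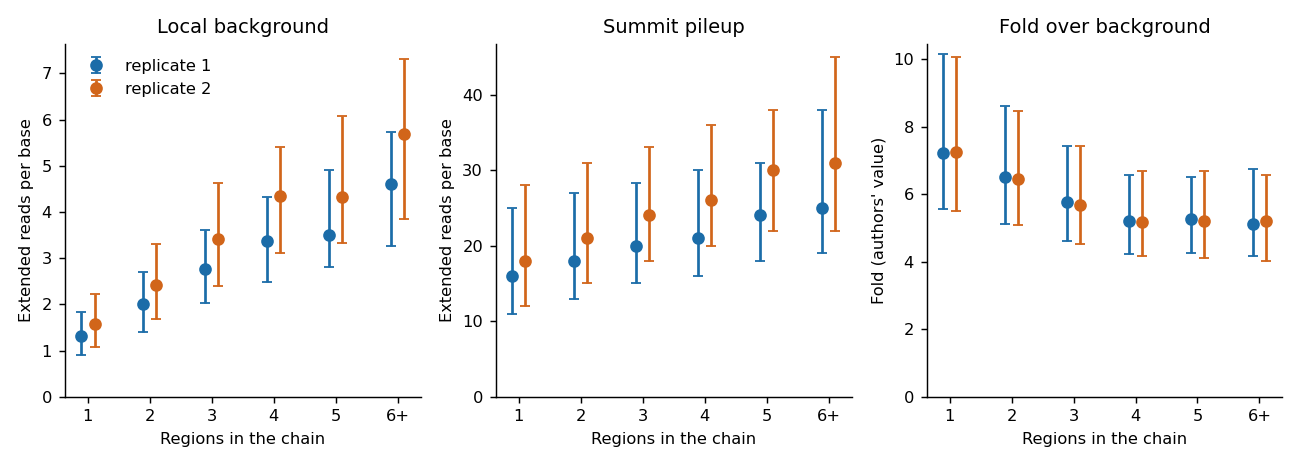
Median (point) and interquartile range (bar) of the local background and summit pileup, in extended reads per base, and of the authors' fold, for reproducible regions by the number of regions in their chain, in each replicate. The median background goes from 1.32 at single regions to 4.62 in chains of 6 or more in replicate 1. In replicate 2 it goes from 1.57 to 5.69, while the fold goes down in both. The chaining rule sets the number of neighbours, and the part of their reads in the background was not tested.

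Regions with a low pileup were rarely members, although by fold members were the lower class, as given above. When all reproducible regions were ranked by pileup averaged over the replicates and divided into 4 equal parts, members made up 1.05% of the weakest part, 3.88% of the second, 7.75% of the third and 8.68% of the strongest (95% Wilson interval 7.91 to 9.52%). Widths of the classes were close. Members had a median width of 307 bp (interquartile range 256 to 383 bp), and single regions had a median of 326 bp (266 to 437 bp). Summits of the replicates lay a median of 32 bp apart in members and 39 bp apart in single regions.

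Within a chain, regions differed in strength by about as much in both replicates. The highest pileup of a chain was a median of 2.21 times its lowest in replicate 1 and 2.18 times in replicate 2. It was under 2 times the lowest in 84 chains in each replicate. The strongest region of a chain had a median of 35 reads in replicate 1 and 43 in replicate 2, and the weakest had 15.5 and 19. By fold, the same region was the strongest in both replicates in 157 of 222 chains (70.7%, 95% Wilson interval 64.4 to 76.3%). By pileup this held for 149 chains (67.1%, 95% Wilson interval 60.7 to 73.0%). The gap to the second region was often small, with a median ratio of 1.27 in replicate 1 and 1.28 in replicate 2 by pileup.

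Clear leaders were few. In 8 chains the same region had at least 2 times the pileup of the next in both replicates. By fold this held in only 2 chains. The clearest by pileup lay on NW_022145607.1 from 23620816 to 23627302. There the first of 4 regions had 84 reads in replicate 1 and 95 in replicate 2. The next highest had 36 reads in replicate 1 and 41 in replicate 2. By fold, the strongest region lay at an end of the chain in 131 chains (59.0%) in replicate 1 and 135 (60.8%) in replicate 2. By pileup the numbers were 103 (46.4%) and 105 (47.3%). Ends made up 44.4% of the members. The shares by pileup were close to that value, and only the shares by fold were well above it. Long chains weigh more in the share of members than in a share of chains, so it is a rough guide. The median background was 3.92 at the 557 interior regions and 3.12 at the 444 end regions in replicate 1, and 4.95 at interior and 3.86 at end regions in replicate 2. The median pileup was 23 reads at interior and 22 at end regions in replicate 1, and 29 at interior and 26 at end regions in replicate 2. The median fold was 5.03 at interior and 5.46 at end regions in replicate 1, and 4.97 and 5.43 in replicate 2. The part of the background in the place of the strongest region was not tested.

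Chain spans also held regions seen in a single replicate. There were 35 regions of replicate 1 only and 55 of replicate 2 only, in 72 of the 222 chains (32.4%). They amounted to 56.2 per Mb of gap inside chains, against 24.3 per Mb of all sequence. The first rate leaves out the bases of members, while the second counts every base, so the rates are not alike. Of the 1091 regions inside chain spans, 91.8% were reproducible, against 46.2% of all merged regions. The rule requires reproducible regions in a chain, so it raises the first share.

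Chains were also built from the peaks of each replicate alone. Every member holds a peak of each replicate and the same limit was used, so the rule largely fixes that dense chains are met again, and the counts are a description. With the peaks of replicate 1 alone, 217 of the 222 chains (97.7%) lay whole within a chain of 4 or more peaks, and with those of replicate 2 alone 220 (99.1%) did. Chains of 4 or more peaks numbered 690 in replicate 1 and 830 in replicate 2, and 31.7% of those of replicate 1 and 26.6% of those of replicate 2 touched a reproducible dense chain. Such chains include peaks without a partner and peaks that merging joins.

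Along the genome, chains were spread thinly over all long sequences. The 21 longest sequences, of 30.0 to 62.1 Mb, each held at least 2 chains and together held 220 of the 222, or 2.66 per 10 Mb. Lengths are the last base covered by a peak and thus lower bounds. The other 90 sequences held 807 reproducible regions but only 2 chains. NW_022145612.1 had the most chains, 34, at 5.47 per 10 Mb, followed by NW_022145611.1 with 21 and NW_022145600.1 with 19. These 3 sequences held 33.3% of the chains and 23.2% of the reproducible regions.

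The share of reproducible regions that were members differed among the 21 longest sequences. Among these it was highest on NW_022145600.1, at 9.18% (95% Wilson interval 7.49 to 11.2%), and lowest on NW_022145603.1, at 1.34% (0.678 to 2.61%), with 2 chains. NW_022145604.1 was alike low, at 1.40% (0.709 to 2.73%). Members of a chain come in groups of 4 or more, so these intervals are too narrow. The share did not simply follow the density of regions. Of the 21, NW_022145606.1 had the fewest reproducible regions per Mb, 9.44, but 6.46% of them were in its 7 chains. NW_022145614.1 had 31.2 per Mb and 3.63% in 9 chains. Over the 21 sequences, which share the 2 libraries, Pearson's r between density and share was 0.33 and Spearman's rho 0.28, given as a description.

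**Figure D5:**
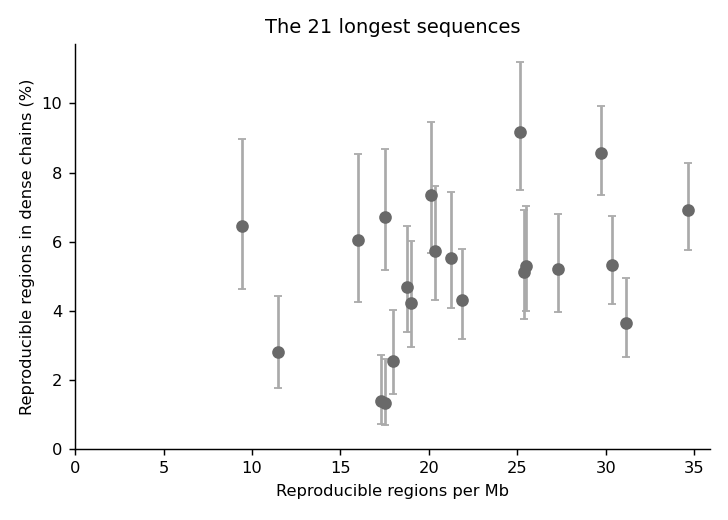
For the 21 longest sequences, the share of reproducible regions that lie in dense chains (%, with 95% Wilson intervals for counting error) against the number of reproducible regions per Mb. The highest share is 9.18% and the lowest 1.34%, and the one of these with the fewest regions per Mb, at 9.44, has 6.46%.

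Chains were placed along the long sequences much as all reproducible regions were. With every sequence cut into 5 equal parts from its first to its last base, the parts held 46, 49, 36, 45 and 44 chains. They held 3665, 3702, 3410, 3516 and 3646 reproducible regions. The middle part was lowest in both, with 16.4% of the chains and 19.0% of the regions. Within 1 Mb of a sequence end lay 5.91% of the chains and 5.16% of the reproducible regions. The 220 chains fell in 177 of the 840 windows of 1 Mb (21.1%).

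Neighbouring chains were mostly far apart, with a median of 1.69 Mb between them over 199 pairs, but 11 pairs lay within 20 kb. The closest pair was on NW_022145601.1, where chains from 12555823 to 12559576 and from 12564914 to 12571213, of 4 regions each, were separated by 5337 bp. Of the 11 pairs within 20 kb, the one with the most regions was on NW_022145597.1. Its chains of 6 regions each, from 22125073 to 22139777 and from 22154659 to 22173172, lay 14881 bp apart and together put 12 reproducible regions within 48100 bp. On NW_022145611.1, a chain of 6 from 17939927 to 17952573 and a chain of 5 from 17971255 to 17984426 put 11 regions within 44500 bp.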

How the data were processed

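ATAC-seq peak lists of 2 replicates of 1 group were used. Per the submitters' processing notes, Bowtie2, SAMtools and MACS2 were used; their versions and settings, and the build, are not given in the sources at hand. Each list carries its sample's name, so peaks were called per sample. As deposited, every peak carries a display score, a fold (a ratio of summit pileup to local background), a −log10 p, a −log10 q and a summit position. The fold is the authors' own value for a peak and was used only to describe and rank peaks within their list.

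Regions were merged where peaks overlapped by at least 1 bp. In each region, the peak with the best p of each replicate stood for that replicate. The pileup was solved as the whole number at which the deposited fold, taken as (pileup + 1)/(background + 1), and the Poisson −log10 p both held within 5e-05, with the background at or above its most frequent value in the list. This gave a value for 29456 and 32554 peaks, all those in the lists. It assumes that MACS2 computed both values in this way. The code was tested on simulated data.

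No test was made, since the intervals chose the members and peaks are not replicates. The members, the rule for the chains named (the 10 with the most regions, the widest and the tightest of 6 or more) and the lists were chosen with earlier results of these data known. Other chains given by position were chosen after their values were seen. Of 33503 genes in the RefSeq table at hand, 33490 carry no sequence name, so genes, promoters and gene lists were not analysed here. No genome sequence was used. Calculations used Python 3.11.15, numpy 2.4.6, pandas 2.3.3, scipy 1.17.1 and matplotlib 3.10.9.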

Additional observations from a re-analysis of the deposited data

Results flagged for a closer look

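Peaks were also listed on the mitochondrial sequence, which the choice of members leaves out: 5 peaks in replicate 1, at a fold of 2.32 to 3.40, and 8 peaks in replicate 2, at a fold of 2.00 to 2.90. They are given because they lie outside the data described above.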

How the results depend on the processing

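The number, size and spacing of dense chains depended on most settings that define them. The number of chains, 222, became 40 with gaps of at most 2000 bp, 723 with gaps of at most 10000 bp, 814 for chains of 3 or more and 29 for chains of 6 or more. It was 121 with a reciprocal overlap of at least 50%, 28 among peaks with a −log10 p of at least 10, and 690 to 830 with a replicate left out. In the same order, the share of reproducible regions in chains, 5.34%, became 0.870, 19.4, 14.8, 0.992, 3.66, 1.20 and 10.8 to 12.0%. The last pair are shares of all peaks of 1 replicate, so their denominator differs. The median span, 8318 bp, became 3710, 16447, 5542.5, 14893, 8822, 9752 and 6690 to 7106 bp. The median gap, 1852 bp, became 586, 3778.5, 1632, 2208, 2015, 2142 and 1268 to 1330.0 bp. The fold of members over that of single regions, 0.720, became 0.671, 0.786, 0.763, 0.714, 0.676, 0.677 and 0.839 to 0.846. Merging regions up to 100 bp apart first gave a share of 4.51%, a span of 8674 bp, a gap of 2115 bp and a fold ratio of 0.706.

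The fold ratio stayed below 1 in each of these settings. Taking the summit pileup in place of the fold turned it round, to 1.44, and the −log10 p gave 0.930. The pileup is the numerator of the fold, and the background by which it is divided was 2.78 times as high at members as at single regions. Restricting to the 21 longest sequences moved none of the 5 values beyond the spread used. These sequences hold 992 of the 1001 members, so this setting could hardly move a value. The spread between replicates was 294 bp for the span, 43.8 bp for the gap and 0.00357 for the ratio. For the share the Wilson interval, which is too narrow, was used, and for the count 1.5 times. The same strongest region in both replicates, 70.7% of chains, was 57.1% among peaks with a −log10 p of at least 10, an alternative added after the data had been seen. Results near gene starts could not be computed. The lists hold no read totals, so depth is known only relative to the background. No paired analysis was possible because both samples belong to 1 group.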

Other observations

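Among windows of 1 Mb, the one with the most dense chains was on NW_022145611.1 from 34000001 to 35000000, with 4 chains among 55 reproducible regions. Another 4 windows held 3 chains each. They lay on NW_022145596.1 from 2000001 with 65 reproducible regions, on NW_022145607.1 from 10000001 with 33 and from 23000001 with 38, and on NW_022145612.1 from 38000001 with 44. These windows were chosen for their number of chains, so the counts are a description.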
